A study of Mus musculus with 8 samples.

Results

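The genes described here are the nuclear-encoded genes of oxidative phosphorylation in mouse vascular smooth muscle cells, which line the media of arteries and contract to set vessel tone. They were chosen by gene name alone, as the rows of the expression table that start with Nduf, Uqcr, Cox4 to Cox8 or Atp5, together with Sdha, Sdhb, Sdhc, Sdhd, Cyc1 and Cycs. Of 107 matching rows, 11 whose names hold the letters -ps were left out, which left 96 of the 27249 genes in the table, the members in what follows. By name, which takes in 4 rows that GENCODE M21 annotates as processed pseudogenes, they comprised 39 subunits of complex I, 8 complex I assembly factors (the Ndufaf genes), 4 subunits of complex II, 8 of complex III, 19 of complex IV, 17 of complex V and cytochrome c. Ndufa4 and Ndufa4l2 were counted with complex IV, where the NDUFA4 protein is known to sit. Some of the names left out are not silent: Ndufb1-ps stood at a mean of 215 normalized counts over the libraries and Ndufa12-ps at 80.7.

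The study sequenced polyadenylated RNA of such cells, taken into primary culture from mice, in 8 libraries, 2 in each of 4 groups. The control cells, labelled wild type in genotype, overexpressed green fluorescent protein (GFP), and the others THOC5, a component of the THO complex, which links transcription to the processing and export of mRNA. Both kinds were cultured in growth medium or osteogenic medium, for which the study describes 6 days with inorganic phosphate (Pi), a treatment used to drive smooth muscle cells toward a mineralizing, bone-like state. The study set out to learn how THOC5 affects gene expression during that transition. All 4 groups therefore carried an overexpressed protein, and how it was delivered is not given in the sources used here. The labels do not say that the 2 libraries of a group came from separate cultures, so p-values measure the spread between libraries, which may be technical.

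Oxidative phosphorylation passes electrons from NADH (complex I) and succinate (complex II) through complex III, the small carrier cytochrome c and complex IV to oxygen. The proton gradient built on the way drives ATP synthesis by complex V. Most subunits are encoded in the nucleus and imported, a core set is encoded by mitochondrial DNA, and assembly factors help to join them without remaining in the finished enzyme. In smooth muscle this pathway supplies ATP for contraction and secretion, beside a high rate of glycolysis.

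Libraries held between 7058681 and 10581042 reads, and values are read counts divided by 1 size factor per library (normalized counts). Thoc5 itself stood at 458 to 650 normalized counts in the 4 GFP libraries and at 1406 to 2155 in the 4 THOC5 libraries. All 11 smooth muscle markers examined had a mean of at least 10 normalized counts. Of 8 macrophage markers 4 had a mean of at least 10 normalized counts (Cd14, Lyz2, Cd68 and Csf1r). The list summed to 682 to 1231 per library, lowest in the GFP osteogenic libraries at 682 and 701. Cd68 went the other way, at 246 and 244 in the GFP osteogenic libraries and 111 to 167 in the others. The defining leukocyte and macrophage genes Ptprc and Adgre1 stood at 0 to 1.88, below the 2.59 to 3.99 normalized counts that 3 reads were worth. Itgam stood at 0 to 0.909 and Mrc1 at 0 to 5.19. The part of such cells in the results was not tested. Genes that also mark adventitial fibroblasts were present, with a summed level of 8042 to 39677. The count of a gene in bulk RNA cannot tell fewer cells of a type from less RNA per cell.

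Together the 96 genes took between 0.481% and 0.671% of the reads of a library. Their normalized counts summed to 47194 and 45152 in the GFP growth libraries, against 57064 and 49742 in the GFP osteogenic libraries. For THOC5 the growth libraries summed to 48574 and 50744, and the osteogenic ones to 48306 and 48763. Both GFP osteogenic libraries thus lay above both GFP growth libraries, but the lower of them lay below the higher THOC5 growth library.

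Levels can be compared between genes only per length, here as the normalized count per kilobase of exon averaged over the 8 libraries. The length used is that of the merged exons of all annotated transcripts of a gene. The level of a gene can therefore be understated where long variants are annotated but little used. Atp5b, the catalytic beta subunit of ATP synthase, had the highest level at 1784 per kb, followed by Cox4i1 at 1370 and Cox8a at 1153, both nuclear subunits of cytochrome c oxidase. Medians were taken over genes with a mean of at least 10 normalized counts. That left out 5 of the 19 genes of complex IV and 4 of the 39 of complex I. These median levels were 402 per kb for complex IV, 348 for complex II, 292 for complex III, 243 for complex I and 235 for complex V. The order of the complexes depends on that cut. The 8 assembly factors had a median of 50.3 per kb, and Cycs, the gene of somatic cytochrome c, stood at 49.2. The highest assembly factor was Ndufaf1 at 113 per kb, and the ranges overlapped, since the subunit gene Ndufb4 stood at 24.7.

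Of the 96 genes, 87 had a mean of at least 10 normalized counts. The 9 below that were the tissue-restricted isoforms Cox4i2, Cox6a2, Cox7a1 and Cox8b, the rows Cox6c2, Ndufs6b, Ndufb4c and Ndufa11b, which GENCODE M21 annotates as processed pseudogenes, and Ndufs3. Ndufs3 encodes a core subunit of complex I, yet its row held only 1 to 3 reads in each library, while Ndufs1, another core subunit, held 759 to 845 normalized counts. These 9 names were listed after their values were seen.

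**Figure D1:**
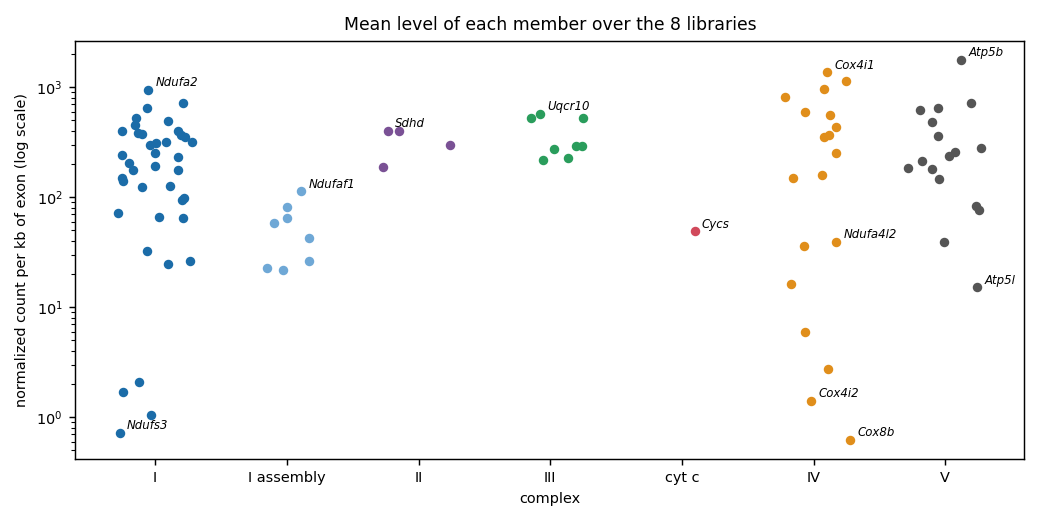
Mean level of each of the 96 genes over the 8 libraries, as normalized count per kb of exon on a log scale, by complex. Each point is a gene. Atp5b is highest at 1784 per kb, the assembly factors lie at 21.7 to 113, and the lowest points of complexes I and IV include the 9 genes with a mean below 10 normalized counts.

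Promoter sequences were read from RefSeq (GRCm38.p6) as windows of 300 bases, from 250 before to 50 after the annotated start, and 75 of the genes had at least 1 window. They are shown here for 4 genes that changed in the comparisons below and whose windows held a match to a known regulatory site. The first is the stretch before the start of Ndufaf4, a complex I assembly factor, at chr4:24897833-24898082 on the plus strand, with the letters searched for nuclear respiratory factor 1 (NRF1) in capitals. The other 3 are windows of 30 bases around a match: the NRF1 letters of Ndufaf5 (chr2:140170652-140170681, plus strand), and the cAMP response element letters (CRE) of Cycs (chr6:50566720-50566749, minus strand) and of Ndufa10 (chr1:92473807-92473836, minus strand). Relative to the annotated start, the match begins at -113 in Ndufaf4, -169 in Cycs, -67 in Ndufa10 and 16 in Ndufaf5, where it lies after the start. The windows of Ndufaf5 and Ndufa10 lie within the spans that GENCODE M21 gives these genes. The capitals mark the match, and all are written 5′ to 3′ on the strand of the gene.
Ndufaf4: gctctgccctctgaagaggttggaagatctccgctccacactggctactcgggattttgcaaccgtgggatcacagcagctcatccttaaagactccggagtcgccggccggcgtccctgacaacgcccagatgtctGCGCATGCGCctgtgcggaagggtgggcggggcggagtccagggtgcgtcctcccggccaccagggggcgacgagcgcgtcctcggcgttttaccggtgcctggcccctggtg
Ndufaf5: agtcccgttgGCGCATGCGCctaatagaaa
Cycs: aggccagagggTGACGTCAcgcacgtccac
Ndufa10: acactcagtggTGACGTCAtggcagcgcgc

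NRF1 is a transcription factor known for its sites in respiratory chain promoters, and its site, GCGCA and GCGC joined by any 1 base (either strand), was found in 18 of the 75 genes (24%). The same site was found in 5.19% of all 27025 genes with a window and in 11.5% of the 9953 other genes with a mean of at least 10 normalized counts. The letters CCGGAAG, read by ETS factors such as GABPA, were found in 25.3% of the 75 genes against 9.93% and 19.9%. AAGATGGCG, the letters of YY1, were found in 10.7% against 1.64% and 3.54%. TGACGTCA, the CRE, was found in 6.67% against 2.03% and 3.63%. The E-box CACGTG was found in 8% of these genes, against 8.09% of all genes and 11.8% of the other measured genes. The antioxidant response element (ARE) and the amino acid response element (AARE) were also searched, and both were rarer in the 75 genes. The ARE was found in 1.33% of them, against 3.45% of all genes and 3.28% of the other measured genes. The AARE was found in 0%, against 4.51% and 2.63%. Members and all windows differ in base composition, with a median GC content of 58.8% in member windows, 52.7% in all windows and 60.7% in those of other measured genes.

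The matches were also counted by the response to osteogenic medium in GFP cells, described next. Of the 20 genes with a window that rose there, 4 held the NRF1 letters, 4 the ETS letters, 2 the YY1 letters and 3 the CRE. Of the 55 that did not pass as risen, 14, 15, 6 and 2 held them. These counts are descriptions of letters in a window, with no test.

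In GFP cells, 6 days of osteogenic medium were accompanied by higher mRNA of cytochrome c and several complex I assembly factors. A minority of the subunits of complexes I and III rose as well. In complex II 1 of 4 genes rose. Complex IV had 2 of 18 risen and 2 fallen, and complex V had 2 of 17 risen. For these last 2 complexes the count of risen genes was near the share of all genes given below. The log2 change of each gene was tested with limma over all 22575 genes that had a value of at least 1 in at least 2 libraries, with Benjamini-Hochberg adjustment and a threshold of 0.05. Of the 95 genes that passed this filter (Cox8b did not), 23 rose and 2 fell. Over all genes tested, 10.3% rose and 10.6% fell. Among genes with a mean of at least 10 normalized counts the shares were 16.3% risen and 17.1% fallen, and those of the 87 members were 26.4% and 2.30%. The median log2 change of the 87 was 0.19, beside 0.02 for all genes at that level.

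Cytochrome c had the highest rise of the 95 genes tested. Cycs (chromosome 6, 50562563 to 50566538, minus strand, GRCm38) stood at 100.2 and 89.1 normalized counts in GFP growth medium and at 393 and 277 in GFP osteogenic medium. The THOC5 libraries held 119.7 and 135 with growth medium, then 121 and 106 with osteogenic medium. The GFP osteogenic libraries were thus the only high ones, with every other library at or below 135. The log2 change in GFP cells was 1.79 (SE 0.17, limma adjusted p = 4.48e-05), a 3.47-fold rise on the log2(value + 1) scale. Cycs has 4 near-identical copies elsewhere in the genome (at least 95% identity over at least 200 bases), none of which had a mean of 10 normalized counts in the table.

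The assembly factors had the highest median of the groups with more than 1 gene, 0.69, and 4 of 8 rose. Ndufaf4 (chromosome 4, 24898083 to 24905001, plus strand), which works with other factors on the early complex I intermediates, stood at 67.6 and 49.2 normalized counts in GFP growth medium and at 186 and 151 in GFP osteogenic medium. With THOC5 it stood at 85.0 and 64.9 in growth medium, against 58.2 and 54.4 in osteogenic medium. Again only the GFP osteogenic libraries were high, and the log2 change in GFP cells was 1.52 (SE 0.21, limma adjusted p = 0.000456).

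Ndufaf5, an enzyme that modifies the core subunit NDUFS7, stood at 80.4 and 65.1 in GFP growth medium and at 164 and 136 in GFP osteogenic medium, a log2 change of 1.04 (SE 0.17, limma adjusted p = 0.00156). Its 4 THOC5 libraries, at 83.0 to 109, lay between those groups. Ndufaf2, a late assembly factor, stood at 50.1 and 46.5 against 102 and 82.3, a log2 change of 0.91. The library kit does not keep strand, and 65.6% of the exon bases of Ndufaf2 are shared with the opposite-strand lincRNA B230220B15Rik, so the reads of the pair cannot be told apart. The remaining riser was Ndufaf1 (log2 change 0.57), and Ndufaf6 had a similar size with a wider error (0.81, SE 0.29, limma adjusted p = 0.0774).

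Among the 39 subunits of complex I, 10 rose and none fell, with a median log2 change of 0.23 over the 35 at a mean of at least 10 normalized counts. Ndufab1, the mitochondrial acyl carrier protein, stood at 171 and 158 in GFP growth medium and at 244 and 265 in GFP osteogenic medium. Its THOC5 libraries lay at 153 and 158 in growth medium against 147 and 139.9 in osteogenic medium, all below the GFP osteogenic ones. The log2 change in GFP cells was 0.62 (SE 0.12, limma adjusted p = 0.00327). Ndufb6, a membrane-arm subunit, had the highest change of the complex, 0.81 (SE 0.15), and Ndufa10, also an accessory subunit, rose by 0.41 (SE 0.09). Of the exon bases of Ndufb6, 39.0% are shared with the opposite-strand gene Smim27, and reads there cannot be told apart without strand. The other 7 risers had log2 changes from 0.33 to 0.61.

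Of the core subunits of complex I that carry the flavin or an iron-sulfur cluster, Ndufv2 rose by 0.33 (SE 0.10), a gene named after its values were seen. Another 4 had smaller values that did not pass. The log2 change was 0.09 (SE 0.08) for Ndufs1, 0.13 (SE 0.11) for Ndufv1, 0.14 (SE 0.13) for Ndufs7 and 0.23 (SE 0.17) for Ndufs8, with limma adjusted p from 0.424 to 0.527.

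In complex II only Sdhb, the iron-sulfur subunit, passed, at 341 and 392 normalized counts in growth medium against 580 and 426 in osteogenic medium (log2 change 0.44, SE 0.14). Sdha, the flavoprotein that oxidizes succinate, stood at 1635 and 1686 against 1589 and 1513, with a log2 change of -0.10 (SE 0.08). Sdhc and Sdhd, the membrane anchors, had log2 changes of 0.12 and 0.15 and did not pass. The 4 genes of this complex therefore had unlike values.

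In complex III, 3 of 8 genes rose and none fell. Uqcrq, a small subunit of the cytochrome bc1 complex, stood at 340.3 and 294 in GFP growth medium and at 802 and 561 in GFP osteogenic medium. The THOC5 libraries stood at 305 and 364 in growth medium against 322 and 371 in osteogenic medium, apart from the GFP osteogenic ones. The log2 change in GFP cells was 1.08 (SE 0.16, limma adjusted p = 0.000834). Cyc1, the cytochrome c1 that hands electrons to cytochrome c, stood at 564 and 505 against 1002 and 749.5, a log2 change of 0.70 (SE 0.14), and Uqcr10 rose by 0.56 (SE 0.13). The Rieske protein gene Uqcrfs1 (0.12, SE 0.10) and the core protein gene Uqcrc2 (0.25, SE 0.09) did not pass.

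Complex IV had rises and falls. Of the 18 genes tested 2 rose, Cox5a by 0.50 (SE 0.11) and Ndufa4 by 0.36 (SE 0.10), and 2 fell. Among all genes with a mean of at least 10 normalized counts, 16.3% rose and 17.1% fell. Cox5a, a nuclear subunit of cytochrome c oxidase, stood at 288 and 269 in GFP growth medium and at 413 and 377 in GFP osteogenic medium. Cox4i1 (0.16, SE 0.09), Cox5b (0.21, SE 0.12) and Cox6c (0.19, SE 0.09) did not pass. The 14 genes of this complex with a mean of at least 10 normalized counts had a median of 0.10.

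Complex V had a median log2 change of 0.12 over 17 genes, of which 2 rose and none fell. For all genes with a mean of at least 10 normalized counts these shares were 16.3% and 17.1%. Atp5b stood at 6974 and 6960 in GFP growth medium and at 9232 and 8138 in GFP osteogenic medium, beside 7229 to 7339 in the 4 THOC5 libraries. Its log2 change was 0.32 (SE 0.09, limma adjusted p = 0.0244), small but above every library of the other groups. Atp5md, a small membrane subunit, rose by 0.47 (SE 0.13). Atp5a1, the partner of Atp5b in the catalytic hexamer, had a log2 change of 0.03 (SE 0.08), with the GFP osteogenic libraries at 1994 and 1847 on either side of both growth libraries.

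**Figure D2:**
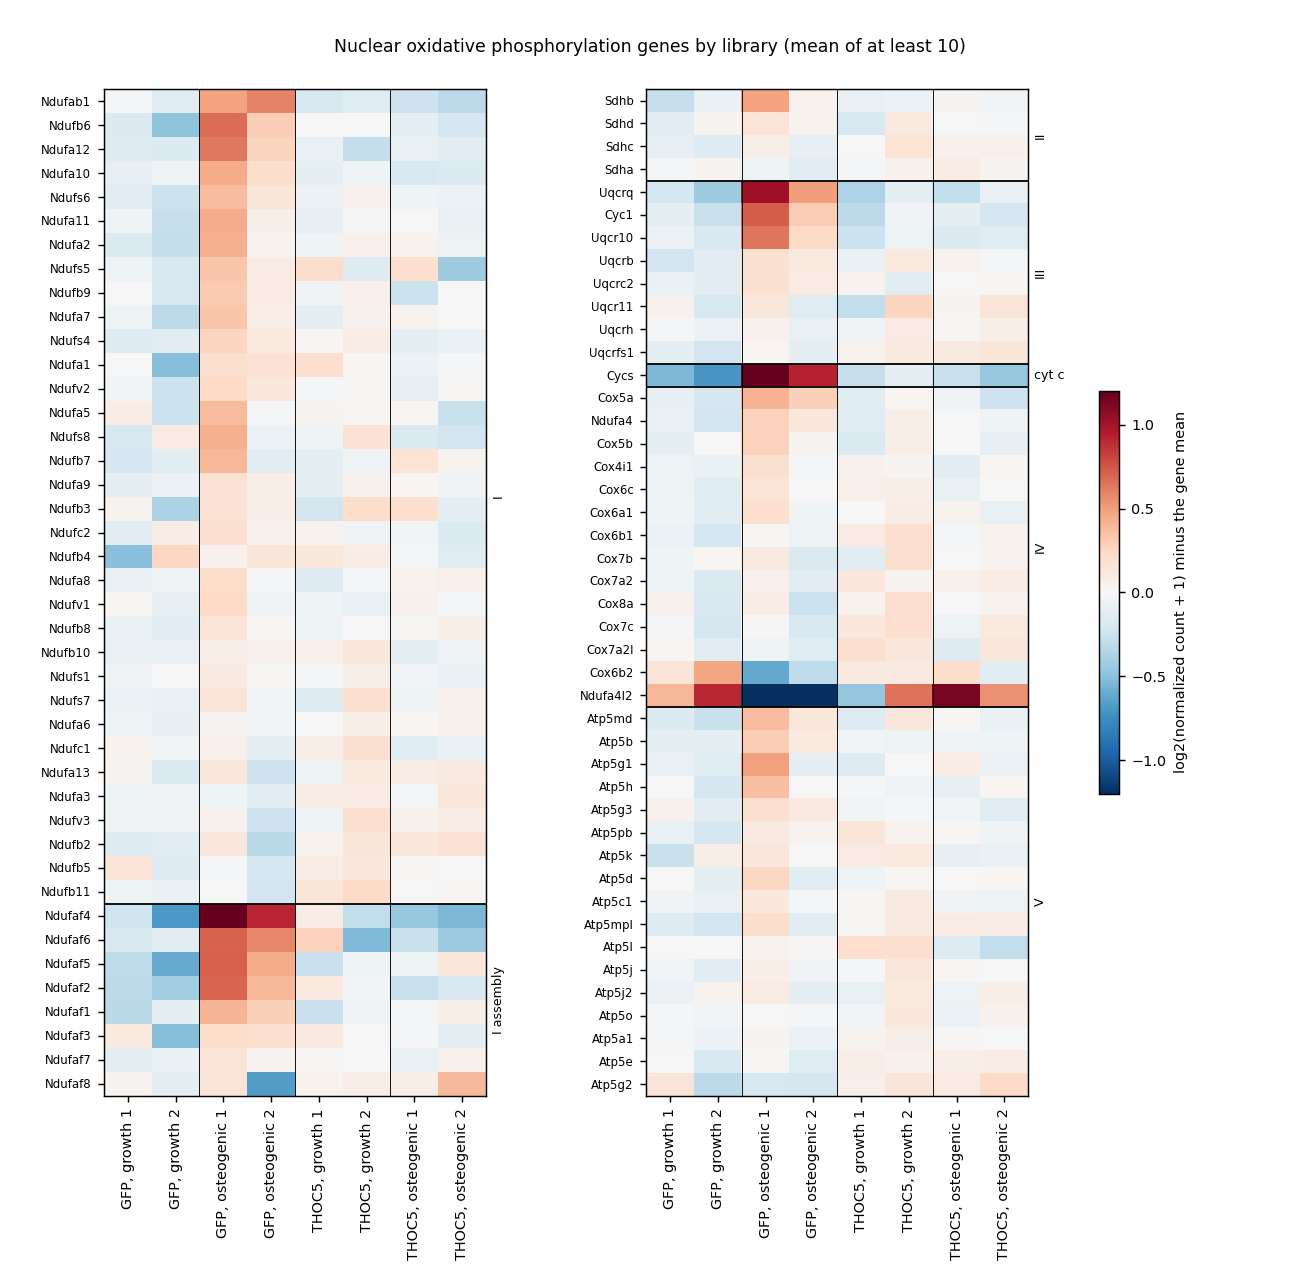
log2(normalized count + 1) minus the gene's mean over the 8 libraries, for 86 of the 87 genes with a mean of at least 10 normalized counts, by complex and by library. Colours saturate at 1.2. Cycs, Ndufaf4 and Uqcrq are dark red in the 2 GFP osteogenic libraries alone, Ndufa4l2 is dark blue there, and GFP osteogenic replicate 1 is redder than replicate 2 for most genes.

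The gene with the largest change was a fall. Ndufa4l2 (chromosome 10, 127514967 to 127517154, plus strand), a paralog of Ndufa4 that is known as a hypoxia-induced gene, stood at 46.6 and 66.5 normalized counts in GFP growth medium and at 11.2 and 10.7 in GFP osteogenic medium. In THOC5 cells it stood at 25.1 and 55.4 in growth medium against 78.1 and 51.6 in osteogenic medium. The GFP osteogenic libraries were the lowest, and the replicates of the other groups were widely spread. The log2 change in GFP cells was -2.24 (SE 0.36, limma adjusted p = 0.00133). Without GFP growth replicate 2 no member fell.

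Per exon length, Ndufa4l2 made up 9.42% ± 2.69 (SD, n = 2) of the summed Ndufa4 and Ndufa4l2 level in GFP growth medium and 1.55% ± 0.0511 in GFP osteogenic medium. The share was 6.21% ± 2.58 in THOC5 cells in growth medium and 9.76% ± 2.34 in osteogenic medium. Cox6b2, the testis isoform of Cox6b1, was the other gene that fell, from 43.1 and 54.5 to 25.1 and 31.3 normalized counts (log2 change -0.77, SE 0.24, limma adjusted p = 0.0442). Its share of the Cox6b pair went from 4.81% ± 1.06 to 2.61% ± 0.493, and the call was lost whichever of the 8 libraries was left out.

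The tissue-restricted isoforms Cox4i2, Cox6a2, Cox7a1 and Cox8b were nearly absent. Cox6a2 stood at 1.17 and 1.33 normalized counts in GFP growth medium and at 4.32 and 5.37 in GFP osteogenic medium, under 1% of the summed Cox6a1 and Cox6a2 level per exon length in all libraries. Cox4i2, Cox7a1 and Cox8b had highest values of 2.73, 6.57 and 0.909. Of the 3 genes of the c-ring subunit of ATP synthase, Atp5g3 gave 78.5% to 82.8% of the level per exon length in the 4 group means, Atp5g2 10.2% to 14.7% and Atp5g1 6.19% to 6.96%. The order of the last 2 rests on the merged exon length, 1675 bp for Atp5g2 and 4912 bp for Atp5g1. Without it Atp5g1 had the higher mean, 193 normalized counts against 128. None of these 3 passed the test in any comparison.

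The size of this response differed between the 2 GFP osteogenic libraries. Replicate 1 was above replicate 2 in 84 of the 87 genes, with a median log2 difference of 0.18, while the median over all 13253 genes at that level was -0.00. Without GFP osteogenic replicate 1, the median change of the 87 was 0.08 and 6 members rose, which were Cycs, Ndufab1, Ndufaf4, Ndufaf5, Ndufb6 and Uqcrq. The count also depended on the control libraries, with 10 members without GFP growth replicate 1 and 5 without replicate 2, and it was 14 without either THOC5 osteogenic library. Cycs, Ndufab1, Ndufaf4 and Ndufaf5 rose in every fit that left out 1 library.

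Over all genes, the difference between the 2 GFP osteogenic libraries went with gene length. The median exon length of the 96 genes was 1559.5 bp, against 4789 bp for genes with a mean of at least 50 normalized counts. For all genes at that level, replicate 1 minus replicate 2 had a median of 0.19 below 1000 bp, 0.13 to 2000 bp, 0.06 to 4000 bp and -0.01 to 8000 bp. The members' own medians in these classes were 0.24, 0.20, 0.15 and 0.18, so they declined less and lay above those of all genes. The medium response of GFP cells also declined along these classes, at 0.12, 0.13, 0.08 and 0.03, whereas the members stood at 0.17, 0.15, 0.22 and 0.22, the last over 9 genes. With the trend on exon length removed from each library, an alternative chosen after seeing the data, 16 members rose and the median of the 87 was 0.11. The median of all 21953 genes in that fit, with no cut on the mean, was -0.05.

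**Figure D3:**
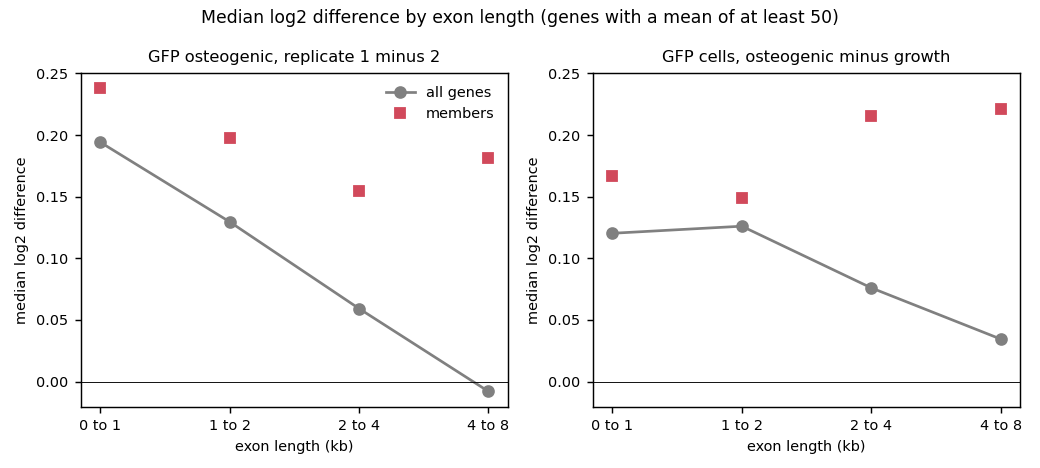
Median log2 difference by exon length class, for genes with a mean of at least 50 normalized counts: GFP osteogenic replicate 1 minus replicate 2 (left) and GFP osteogenic minus growth medium (right). Grey circles are all genes and red squares the members. Grey falls from 0.19 to -0.01 on the left and from 0.12 to 0.03 on the right, and the members lie above it in each of these 4 classes.

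Other genes moved with the response. Smooth muscle markers summed to 44900 and 48825 at the ends of the range in GFP growth medium and to 25488 and 29569 in GFP osteogenic medium, and 10 of the 11 fell. Fibroblast markers went from 30708 to 35019 down to 8042 to 11399, and 4 of 8 fell. Most of these sums came from C3 and Dcn. Ly6a did not follow, at 2028 and 1993 in GFP growth medium against 1934 and 2618 in GFP osteogenic medium. In THOC5 cells the smooth muscle sums were 50659 to 51438 in growth medium and 43492 to 45536 in osteogenic medium, and the fibroblast sums 38307 to 39677 and 32008 to 36322. Of the 8 fibroblast markers 1 rose and 0 fell there, with Ly6a at 1853 and 1750 in growth medium against 3519 and 3306 in osteogenic medium. The part of these shifts in the result was not tested.

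Scaling changed the number of calls. With libraries scaled to equal totals in place of the size factors, 38 members rose and 1 fell in the GFP response. However, the median of all 22575 genes tested moved from 0 to 0.13, and the calls over them became 16.5% risen and 7.48% fallen. The members' median was 0.33 on that scale, so the 87 genes lay above the median of all genes tested by either scaling.

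In THOC5 cells no gene of the 95 passed the test of osteogenic against growth medium. Over all genes 0.532% rose and 0.00886% fell in this comparison with limma, 1 member had an unadjusted p under 0.05, and the count models edgeR and DESeq2, run on the recovered reads, also called 0 members. The median log2 change of the 87 genes was -0.02, beside -0.01 for all genes at that level. Cycs had a log2 change of -0.16 (SE 0.17), Ndufaf4 of -0.39 (SE 0.21), Uqcrq of 0.05 (SE 0.16) and Ndufab1 of -0.11 (SE 0.12). Of the 87, Ndufa4l2 had the highest value, 0.75 (SE 0.36, limma adjusted p = 0.877), with overlapping groups.

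THOC5 overexpression in growth medium gave no call either. Over all genes 0.00443% rose and 0% fell with limma, 0 of the 95 members passed, and edgeR and DESeq2 also called 0. An unadjusted p under 0.05 was found for 9 members with limma, 8 with edgeR and 2 with DESeq2. The log2 difference was above 0 in 81 of the 95, all 17 of complex V among them, with a median of 0.11 over the 87, beside 0.01 for all genes at that level. The replicates of both groups also differed in most members. GFP growth replicate 1 was above replicate 2 in 61 of the 87, with a median log2 difference of 0.08. THOC5 growth replicate 2 was above replicate 1 in 64, with a median of -0.08 for replicate 1 minus replicate 2. Without any 1 of these libraries the members' median was 0.08 to 0.17. Scaled to library totals the members' median was 0.04 and that of all 22575 genes tested -0.07. The lowest limma p belonged to Cox6b1 (0.29, SE 0.09, adjusted p = 0.906).

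**Figure D4:**
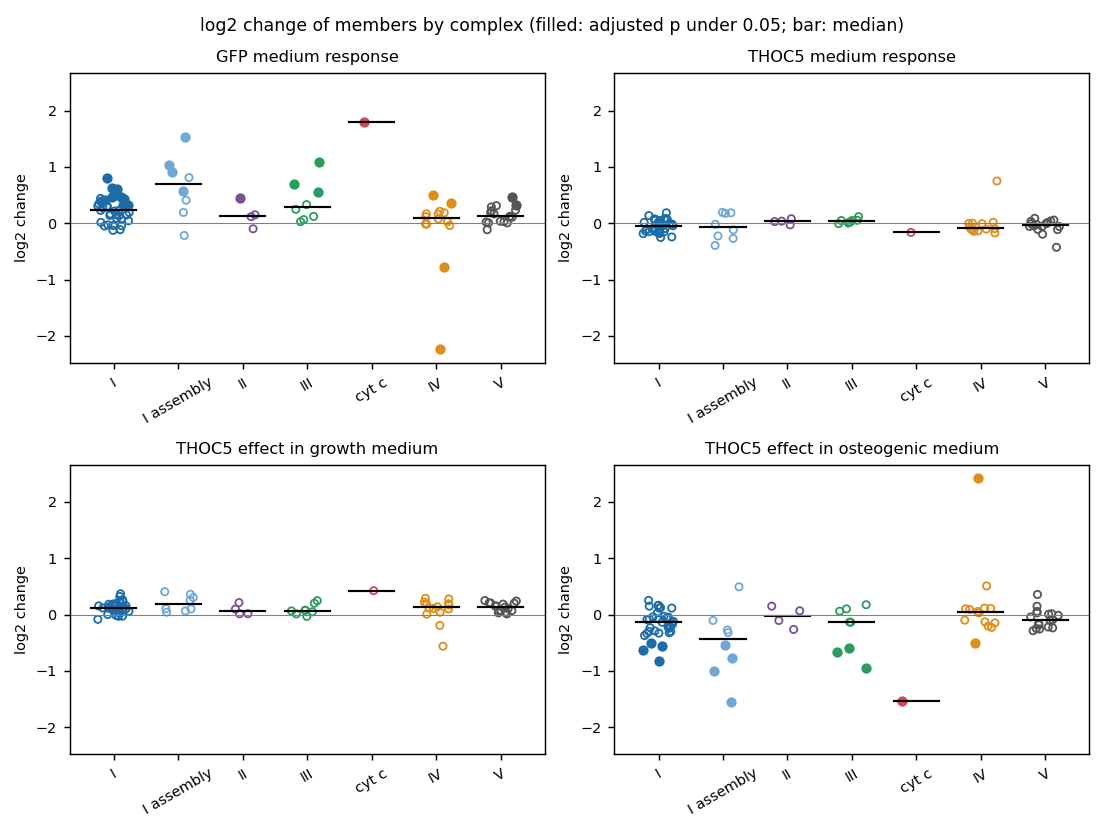
log2 change of the 87 genes with a mean of at least 10 normalized counts in the 4 pairwise comparisons, by complex. Each point is a gene, filled points passed the limma test at an adjusted p under 0.05, and bars are medians. Filled points lie in the GFP medium response and in the THOC5 effect in osteogenic medium only.

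In osteogenic medium, THOC5 cells had lower mRNA of cytochrome c, 4 of the 8 complex I assembly factors and some subunits than GFP cells. Of the 95 genes 14 fell and 1 rose, while over all genes 10.7% fell and 11.3% rose. Among the 87 genes with a mean of at least 10 normalized counts, 14.9% fell and 1.15% rose, beside 17.1% and 18.4% of all genes at that level, so the share that fell was near the background and the share that rose was far under it. The median was -0.13 for the 87 and -0.01 for all. This comparison uses the same GFP osteogenic libraries as the medium response of GFP cells, so the values of both are given side by side and are not independent.

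Cycs was lower in THOC5 than in GFP cells by a log2 difference of -1.54 (SE 0.17, limma adjusted p = 0.000118), beside its 1.79 in the GFP response. Ndufaf4 stood at -1.56 (SE 0.21) beside 1.52, Uqcrq at -0.96 (SE 0.16) beside 1.08, and Ndufab1 at -0.82 (SE 0.12) beside 0.62. Cyc1 (-0.67), Ndufb6 (-0.64), Uqcr10 (-0.59), Ndufaf5 (-0.54), Ndufa10 (-0.50) and Cox5a (-0.50) also fell. None of the 17 genes of complex V and none of the 4 of complex II passed, with Atp5b at -0.25 (SE 0.09) and Sdhb at -0.27 (SE 0.14).

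Ndufa4l2 was the gene that rose, by 2.43 (SE 0.36, limma adjusted p = 0.000723), and it passed in every alternative tried. Cox6a2 was called as fallen at 4.32 and 5.37 against 0 and 0.939 normalized counts, values that are worth 5 to 6 reads against 0 to 1. The count of fallen members was 5 without GFP osteogenic replicate 1, 7 without THOC5 osteogenic replicate 1 and 6 without replicate 2. It was 39 with libraries scaled to equal totals, where the median of all genes tested was -0.16. Cycs, Ndufa10, Ndufab1, Ndufaf4 and Uqcrq fell in every fit that left out 1 library.

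**Figure D5:**
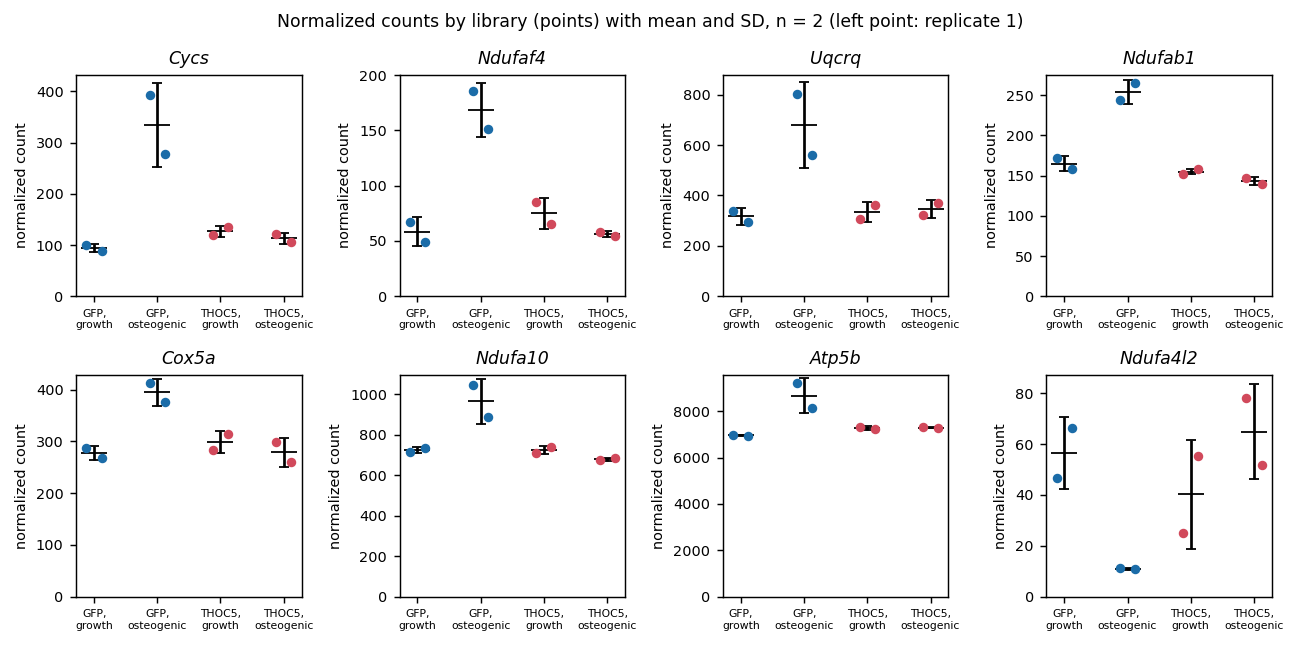
Normalized counts of 8 genes in each library, with the mean and SD of each group (n = 2; blue GFP, red THOC5; left point replicate 1). The 2 GFP osteogenic libraries stand above all others for the first 7 genes, Cycs to Atp5b, and below all others for Ndufa4l2, at 11.2 and 10.7.

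The difference between the medium responses of THOC5 and GFP cells was tested as an interaction. It passed as negative, a smaller or more negative response in THOC5 cells, for 8 of the 95 genes and as positive for 1, while over all genes 3.92% were negative and 5.3% positive. Of the 87 genes at a mean of at least 10 normalized counts, 9.20% were negative and 1.15% positive, beside 6.38% and 8.86% of all genes at that level. The negative genes were Cycs (-1.96, SE 0.24), Ndufaf4 (-1.92, SE 0.29), Ndufaf2 (-1.18), Uqcrq (-1.03, SE 0.23), Ndufb6 (-0.96), Ndufab1 (-0.73), Cox5a (-0.60) and Ndufa10 (-0.50). Ndufa4l2 was the positive one at 2.99 (SE 0.51, limma adjusted p = 0.00562). The median of the 87 genes was -0.24, beside -0.01 for all genes at that level, and 77 of the 95 values were below 0. Without GFP growth replicate 1 limma called 0 of the 22575 genes, members included, and the median of the 87 was -0.25. Without GFP growth replicate 2 it called 83 genes positive and 20 negative, no member among them, with a median of -0.20. As for the other libraries, 2 negative ones (Cycs and Ndufaf4) remained without GFP osteogenic replicate 1, without THOC5 growth replicate 1 or without either THOC5 osteogenic library, and 3 without THOC5 growth replicate 2.

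The respiratory chain mRNAs encoded by mitochondrial DNA went the other way in GFP cells. Of the 8 measured here, 5 fell and none rose in osteogenic medium, with a median log2 change of -0.72. mt-Cytb, the cytochrome b of complex III, stood at 25640 and 24930 in growth medium against 13469 and 14825 in osteogenic medium (log2 change -0.84, SE 0.10), and mt-Nd6, a subunit of complex I, changed by -0.89 (SE 0.10). In THOC5 cells mt-Cytb was the only one that fell, by 0.57 on the log2 scale (SE 0.10, limma adjusted p = 0.0218), the median was -0.40, and no interaction of these 8 passed. THOC5 cells in osteogenic medium were higher than GFP cells for 5 of the 8 and lower for mt-Nd2.

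The summed nuclear members were 0.235 and 0.224 of the summed mitochondrial mRNAs in GFP growth medium and 0.474 and 0.361 in GFP osteogenic medium. In THOC5 cells that ratio was 0.239 and 0.249 in growth medium against 0.293 and 0.316 in osteogenic medium. It was higher in all 4 osteogenic libraries than in any growth library. Polyadenylated RNA was sequenced, and mitochondrial mRNAs carry short tails, so the ratio is between recovered reads and not between molecules.

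Assembly factors whose names fall outside the rule were a separate list. Of 45 such genes 14 rose and none fell in the GFP response, where 16.3% of all genes at a mean of at least 10 rose and 17.1% fell, with a median of 0.18 over the 44 at a mean of at least 10 normalized counts. Sco1, which delivers copper to complex IV, stood at 133 and 116 in growth medium against 206 and 203 in osteogenic medium (log2 change 0.72, SE 0.13). Lrpprc, which stabilizes mitochondrial mRNAs, rose by 0.65 (SE 0.10), Fastkd2 by 0.65 and Uqcc2, a complex III assembly factor, by 0.79. In osteogenic medium 13 of the 45 were lower in THOC5 than in GFP cells and none higher, beside 17.1% and 18.4% of all genes at that level, and 5 of the interactions were negative, beside 6.38%.

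Of 25 regulators of mitochondrial biogenesis that were tested, 4 rose and 2 fell in the GFP response, and the share that rose was near the 16.3% of all genes at a mean of at least 10 normalized counts. Tfam, which packages mitochondrial DNA and starts its transcription, stood at 390.4 and 362 in growth medium against 570 and 566 in osteogenic medium (log2 change 0.60, SE 0.12), and at 350.5 to 443 in the THOC5 libraries. Gabpb1, a cofactor of GABPA, rose by 0.66 (SE 0.11), whereas Gabpa itself and Gabpb2 fell by 0.35 and 0.57. Nrf1, named after its values were seen, had a log2 change of 0.18 (SE 0.13), and the coactivator gene Ppargc1a stood at 1.33 to 6.76 in all libraries, near the limit of detection.

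Among 25 genes of the citric acid cycle and pyruvate dehydrogenase, which feed electrons into the chain, 9 rose and 4 fell in the GFP response, and the share that fell was near the 17.1% of all genes at a mean of at least 10 normalized counts. Idh3a, the catalytic subunit of NAD-dependent isocitrate dehydrogenase, stood at 482 and 464 in growth medium against 850.2 and 701 in osteogenic medium (log2 change 0.71, SE 0.10), and its 4 THOC5 libraries lay at 479.8 to 499. Dld rose by 0.68. The pyruvate dehydrogenase kinases moved apart, Pdk4 rising by 0.59 and Pdk2 falling by 0.85. None of the 25 passed in the THOC5 response, and the interaction was negative for 8 and positive for 2, where 6.38% of all genes at that level were negative and 8.86% positive.

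The authors' deposited table of comparisons gives adjusted p-values for 87 of the 96 genes in the GFP response, with 21 risen and 1 fallen at the same threshold. That is 25.3% called beside 27.0% of all genes with an adjusted p there, but the directions differ. Of those 14042 genes 1819 rose and 1979 fell. It lists 12 fallen and 1 risen for THOC5 against GFP in osteogenic medium, 14.9% beside 29.8% of all genes, of which 2188 rose and 1994 fell. In the other 2 comparisons it lists 0 members. The shares of all genes there were 1.10% for the THOC5 medium response and 0.00367% for THOC5 against GFP in growth medium.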

How the data were processed

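Reads of 8 libraries were deposited by the authors as a signal for each of 27249 genes, shown by the values to be counts over a size factor of each library: multiplied by that factor, 100% of values came within 0.001 of a whole read. The authors' deposited table also gives log2 fold changes and adjusted p-values for 4 comparisons, per the file headers, and a test statistic (a score), which was not used. FastQC, Bowtie2, MACS2, SAMtools and mm10 are named without roles, per the submitters' processing notes, while for counting and annotation the sources used here give nothing. The kit does not keep strand, so overlapping genes share reads. RNA immunoprecipitation, also named in the design, was not analysed here. Samples were grouped by title and columns matched by description label, with 0 sample columns unused.

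limma 3.58.1 (R 4.3.3, trend option) was fitted to log2(value + 1) for the 22575 genes reaching 1 in 2 or more libraries, with all 8 libraries in 1 fit of 4 groups (4 residual degrees of freedom), with Benjamini-Hochberg adjustment over all genes in each of 5 contrasts. Fold changes on this scale understate low genes. edgeR 4.0.16 (quasi-likelihood) and DESeq2 1.42.0 on the recovered reads, other pseudocounts, filters and scalings, the replicate number as a block and fits without each library were alternatives. The limma script was tested on simulated data. A value of 0 allows up to 3 reads, 2.59 to 3.99 normalized counts, counting error only.

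Members and lists were chosen with earlier results of these data known. Genes are named if they belong to isoform families or representative subunits, have the smallest p in a comparison (up to 8 per direction), are the highest or lowest of their complex in the GFP response, or have the smallest p in another list (up to 4); other names are marked in the text or belong to a count of 10 or fewer. Exon lengths and coordinates came from GENCODE M21 (GRCm38), with 3 members matched through a RefSeq synonym. Of 92 members with a coding transcript to align, 22 had a near-identical stretch at another annotated gene that shares no exon bases with them, and 0 such genes had a mean of at least 10 normalized counts in the table. The values of 1 member are not reported here, though it is counted in the totals.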

Additional observations from a re-analysis of the deposited data

Results flagged for a closer look

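The difference in medium response between THOC5 and GFP cells passed the limma interaction test for 9 of the genes, and is given as THOC5 minus GFP on the log2 scale. It was -1.96 for Cycs, -1.92 for Ndufaf4, -1.18 for Ndufaf2, -1.03 for Uqcrq, -0.96 for Ndufb6, -0.73 for Ndufab1, -0.60 for Cox5a and -0.50 for Ndufa10. For Ndufa4l2 it was 2.99. None of the 9 passed when either GFP growth library was left out. Of all 22575 genes limma then called 0 without replicate 1, and 83 as positive and 20 as negative without replicate 2.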

How the results depend on the processing

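The 4 counts of members in the THOC5 medium response and the THOC5 effect in growth medium were 0 in every alternative run. The 23 risen members of the GFP response became 38 with library totals and 7 with only the libraries compared, and the 2 fallen became 1 with a pseudocount of 8, any value above 0, library totals, TMM factors, DESeq2, only the libraries compared or the replicate block. The 14 fallen members of the THOC5 effect in osteogenic medium became 39 with library totals and 4 with only the libraries compared. The 8 negative interactions became 4 with any value above 0 and 14 with library totals. Leaving out 1 library at a time gave 5 to 24 risen and 0 to 1 fallen in the GFP response, 5 to 15 fallen and 1 risen for THOC5 in osteogenic medium, and 0 to 11 negative and 0 to 1 positive interactions. A lone library is then assumed to vary like the other groups. The cause of these changes was not tested, apart from the fewer libraries or the larger number of genes adjusted for that the settings themselves bring. Deviations of same-numbered libraries correlated at 0.25 between the GFP and THOC5 growth groups and at -0.12 to 0.04 between the other pairs of groups. A fit with the replicate block gave 23 risen in the GFP response, 13 fallen in the THOC5 effect in osteogenic medium and 9 negative interactions. Across single named genes, 1285 values kept their side of the threshold, 232 lost the call and 9 gained one. No value with a call in either fit reversed direction, and direction was not compared where neither fit called the gene. With 2 libraries per group and genes such as Ndufa4l2 at 12 to 86 reads, small changes are beyond this depth.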
